A study of Rattus norvegicus with 19 samples.

Results

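The comparison described here set left ventricles of rats with heart failure with preserved ejection fraction (HFpEF), taken at week 5 when the disease had been induced, against left ventricles of control rats of the same week. Its members were chosen by their titles, 3 libraries of HFpEF at 5 weeks and 3 of control at 5 weeks, and they are 6 of the 19 libraries of the series. Of the 17455 genes in the files, 12388 had enough counts to be tested. All rats were Sprague–Dawley and 24 weeks old at the start. HFpEF was induced by a pair of hits given together for 5 weeks, L-NAME at 0.5 g/L in the drinking water and a high-fat diet with 60% of the energy from lard, while control rats drank water without L-NAME and ate chow. L-NAME blocks nitric oxide (NO) synthase and raises blood pressure, and the diet adds a metabolic load. Because both hits were given together, and because every HFpEF rat received both, the effect of either hit cannot be told apart from that of the other. The libraries are separate hearts by their labels.

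In the heart, NO made by endothelial NO synthase activates soluble guanylate cyclase, and the cGMP it forms acts through protein kinase G on vessels and cardiomyocytes. HFpEF is known for stiff ventricles that fill poorly while the ejection fraction is kept, and for an inflamed microvascular endothelium. Cardiomyocytes depend on mitochondrial oxidation of fatty acids, on calcium release through the ryanodine receptor, and on ion channels that set the rate and shape of the action potential.

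Total counts were 11628931, 13017754 and 12616559 in control replicates 1 to 3 and 12205327, 9386791 and 10857636 in HFpEF replicates 1 to 3. At these depths a gene without counts could still have up to 3 counts, which is 0.215 to 0.283 CPM in the 6 libraries (counting error only). The 10 most abundant genes of each library took 10.8%, 9.40% and 8.79% of the counts in control and 4.77%, 5.42% and 6.13% in HFpEF. The most abundant gene was Actc1 in control replicate 1, Col3a1 in control replicates 2 and 3 and HFpEF replicate 1, Gsn in HFpEF replicate 2 and Mb in HFpEF replicate 3. Below, values of 3 libraries are in the order of replicates 1 to 3, replicates are named as control 1 or HFpEF 2, CPM are the counts of a gene scaled to the TMM-normalized library total, ± is the standard error of a log2 fold change, and differentially expressed genes (DEGs) have a Benjamini-Hochberg adjusted p-value under 0.05 in edgeR's quasi-likelihood test and differ at least 2-fold. Tests by limma's voom used quality weights.

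The labels call every heart male, and the counts of sex-linked genes went against the label in 2 of the 6 libraries. Eif2s3y, which lies on the Y chromosome, had 1204, 1321 and 1211 counts in control and 0, 855 and 0 counts in HFpEF. Ddx3 had 1060, 1270 and 1303 counts in control and 0, 1084 and 0 counts in HFpEF. Ddx3y, Sry and Usp9y did not differ in this way. Ddx3y had 4, 6 and 19 counts in control and 6, 6 and 10 counts in HFpEF, and Sry and Usp9y had 0 counts in all 6 libraries. LOC100911498, whose symbol has no named function, had 12, 1 and 4 counts in control and 27077, 1 and 17699 counts in HFpEF (edgeR log2 fold change 11.22 ± 1.91, adjusted p = 0.00219, with 12.45 without control 1 and 11.80 without HFpEF 2). It is on the same list of Y-linked and X-inactivation genes. Its counts went the opposite way, high in the libraries without Eif2s3y counts and low in those with them. HFpEF replicates 1 and 3 thus lacked counts of Eif2s3y, and HFpEF 2 had them as all 3 control libraries did. No control library lacked these counts, so this difference and the disease cannot be told apart in replicates 1 and 3. Results below were therefore also computed with HFpEF 2 alone against the 3 control libraries, where the lone library was assumed to vary like the other groups.

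Markers of cardiomyocytes were present in all 6 libraries. The 13 tested cardiomyocyte markers summed to 100170.0, 42404 and 47709 CPM in control and 14816, 29487 and 43292 CPM in HFpEF, with Actc1, the cardiac actin, as the most abundant. Of the defining markers none was at 0 in all 6 libraries. Atrial genes were also present, and the list summed to 4835, 8788 and 7095 CPM in control and 3679, 1089 and 3451 CPM in HFpEF, led by Nppa, the atrial natriuretic peptide. Myl7, an atrial myosin light chain, had 694, 293 and 307 CPM in control and 7.75, 15.3 and 39.7 CPM in HFpEF. Of the 13 tested genes of the atrial list, 2 were lower DEGs and the other 11 did not pass (median −1.04, from −1.47 without HFpEF 3 to −0.58 without control 2 and −1.82 with HFpEF 2 alone), with 1 lower DEG whichever library was left out or with HFpEF 2 alone and 3 in voom.

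Some libraries stood apart from the others of their group. On the first principal component of the 6 libraries, which held 50.4% of the variance, control replicates lay at −68.1, −15.0 and −21.6 and HFpEF replicates at 71.6, 9.73 and 23.3, so that control 1 and HFpEF 1 formed the ends. The second component held 29.6%. Control replicates 2 and 3 were more alike than the other pairs within a group, with a chi-square of 7.05 per gene (11773 genes with at least 20 counts in the pair) against 51.8 to 187 in the other pairs, and they still differed by more than sampling noise. Control replicate 1 had few counts of fibroblast genes. The 17 fibroblast markers summed to 8557, 49995 and 41153 CPM in control and 22673, 18722 and 19312 CPM in HFpEF, led by Col3a1, a fibrillar collagen. HFpEF 1 had many counts of genes of cartilage, bone and tendon matrix, and the 22 genes of that list in the files summed to 125, 321 and 286 CPM in control and 2764, 241 and 425 CPM in HFpEF, led by Col2a1, the collagen of cartilage. The list of Schwann cell and nerve markers summed to 376, 507 and 449 CPM in control and 1727, 450.0 and 578 CPM in HFpEF, with Pmp22 as the most abundant. What part these cells or tissues had in any result below was not tested.

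The control libraries of week 5 also stood apart from those of week 9. In tests chosen after seeing the data, in the model of all 19 libraries, control hearts of week 5 differed from control hearts of week 9 (3 libraries each) in 1817 DEGs in edgeR, more than the 1076 between HFpEF and control at week 5, while HFpEF hearts of week 5 differed from HFpEF hearts given PBS vehicle of week 9 in 24. Hcn4 had 1.35, 0.369 and 2.49 CPM in week 9 control, Hk2 had 6.88, 6.76 and 11.4 CPM, Angptl4 had 9.93, 11.8 and 7.98 CPM, Dusp1 had 569, 615 and 477 CPM, Nfkbia had 765, 863 and 527 CPM and Sgk1 had 479, 536 and 330.2 CPM. For Dusp1, Nfkbia and Sgk1 these levels are near or above those of HFpEF at week 5 and for Hcn4 and Hk2 near or below them, as given with each gene below. The latter also held for Ddah1 (8.01, 5.90 and 16.1 CPM), Cs (169, 172 and 188), Hspa9 (134, 128 and 167) and Ccnd2 (16.7, 7.87 and 25.2). Camk2d, at 79.6, 85.0 and 58.9 CPM, lay between the groups of week 5. Eno3, at 225, 202 and 241 CPM, lay near the lowest week 5 control library. Age and any other difference between the weeks cannot be told apart, and what part the level of the week 5 control libraries had in the results below was not tested.

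**Figure D1:**
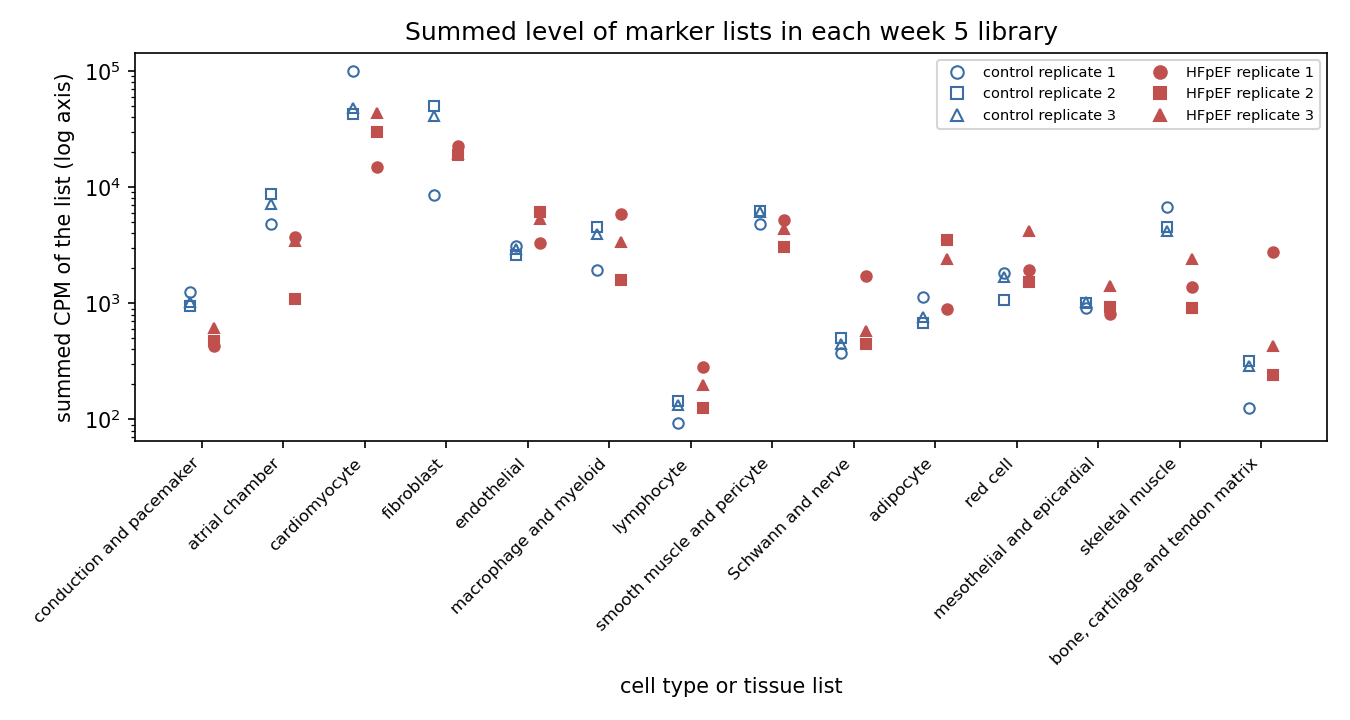
Summed CPM of each marker list (log axis) in the 3 control libraries (open blue symbols) and the 3 HFpEF libraries (filled red symbols) of week 5, one symbol shape per replicate. Control replicate 1 is lowest for fibroblast markers (8557 CPM) and HFpEF 1 is highest for bone, cartilage and tendon matrix (2764 CPM).

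In HFpEF at week 5, the DEGs that fell included genes of potassium channels, calcium cycling and the tricarboxylic acid cycle. Those that rose included immediate early genes, interferon-induced genes and endothelial genes. The pacemaker channel Hcn4 was at 1.65 to 4.52 CPM in HFpEF against 48.0 to 59.0 CPM in control, and Angptl4, an inhibitor of lipoprotein lipase, was at 23.7 to 71.3 CPM against 0.955 to 1.32 CPM. Among the 12388 tested genes, 1076 (8.69%) were DEGs in edgeR. Of these, 530 (4.28% of tested genes) were higher and 546 (4.41%) were lower in HFpEF, and 2478 genes (20.0%) passed the adjusted p-value alone and 4436 (35.8%) the unadjusted one. The 3 HFpEF libraries did not overlap with the 3 control libraries in 1002 of the DEGs, and in 37.7% of all tested genes. The median log2 fold change of all tested genes was 0.022, against which the medians of gene lists below can be read. The counts of higher and lower DEGs in each list can be read against the 4.28% and 4.41% of all tested genes. When each of the 6 libraries was left out in turn, 416 DEGs (194 higher and 222 lower) were called with the same sign in all 6 fits. There were 316 higher DEGs without control 3 and 339 lower DEGs without HFpEF 2, and the adjusted p-value alone gave 1498, 1500 and 1490 genes without control 1, control 3 and HFpEF 2. When only the 6 libraries were fitted there were 460 DEGs, and 448 of the 1076 were among them. Lists below held fewer DEGs in that fit. Lower DEGs numbered 6 for calcium cycling, 3 for the tricarboxylic acid cycle, 3 for glycolysis, 5 for the sarcomere, 4 for potassium channels and 0 for cardiomyocyte markers. Higher DEGs numbered 2 for cytokines and chemokines, 4 for endothelial markers, 1 for bone, cartilage and tendon matrix and 0 for Schwann and nerve markers. With HFpEF 2 alone there were 813 DEGs, and 457 of the 1076 were among them with the same sign. With 3 hearts in each group the smallest p-value that an exact permutation test allows is 0.10.

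Among the genes named by the size of their fall were Hcn4, Chrm2, Adra1a and Sphkap. Hcn4, which carries the funny current, had 48.0, 54.7 and 59.0 CPM in control and 4.52, 1.65 and 3.04 CPM in HFpEF (edgeR log2 fold change −4.11 ± 0.48, adjusted p = 0.00028). Chrm2, the muscarinic receptor through which the vagus slows the heart, had 57.7, 38.4 and 39.4 CPM in control and 3.88, 2.84 and 8.40 CPM in HFpEF (edgeR log2 fold change −3.16 ± 0.45, adjusted p = 0.00088). Adra1a, the alpha-1A adrenergic receptor, had 16.7, 13.6 and 14.1 CPM in control and 0.718, 1.56 and 2.23 CPM in HFpEF (edgeR log2 fold change −3.31 ± 0.44, adjusted p = 0.000593). In these 3 genes each HFpEF library, replicate 2 included, lay below each control library, which was a condition for naming them by size. Sphkap, which binds protein kinase A and sphingosine kinase, had 58.9, 55.0 and 63.2 CPM in control and 4.81, 4.22 and 8.40 CPM in HFpEF (edgeR log2 fold change −3.35 ± 0.51, adjusted p = 0.00126). Hcn4, Chrm2, Adra1a and Sphkap were also DEGs with HFpEF 2 alone (log2 fold change −5.02, −3.98, −3.23 and −3.80). Of the 25 tested potassium channel genes, 8 were lower DEGs, 1 was a higher DEG and 16 did not pass, and the median log2 fold change was −1.005, from −1.24 without HFpEF 3 to −0.44 without control 1 and −0.34 in voom. The list held 4 without control 1 or HFpEF 1 or 2 or with HFpEF 2 alone and 5 without control 3 as lower DEGs, and 0 higher DEGs without control 1 or 3 or HFpEF 1 or with HFpEF 2 alone. Kcnj3, a subunit of the acetylcholine-gated channel, had 24.2, 20.4 and 19.5 CPM in control and 2.80, 2.57 and 5.63 CPM in HFpEF (edgeR log2 fold change −2.55 ± 0.50, adjusted p = 0.0052), Kcnk3, a background channel, had 44.3, 29.0 and 30.6 CPM in control and 4.81, 5.87 and 9.02 CPM in HFpEF (edgeR log2 fold change −2.40 ± 0.43, adjusted p = 0.00297), and Kcnj2, the inward rectifier that holds the resting potential, had a log2 fold change of −1.88 ± 0.30. None of the HFpEF libraries reached the control range in Kcnj3 and Kcnk3. Kcnj3 is also in the atrial list, where it and Tbx5 were the 2 lower DEGs.

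Of the 15 tested conduction genes, 5 were lower, 1 was higher and 9 did not pass (median −0.70), with 2 without control 1 or HFpEF 1, 3 without control 2 or 3 or HFpEF 2 or in voom and 1 with HFpEF 2 alone as lower DEGs. Gja1, the gap junction protein of working myocardium, had 791, 505 and 582 CPM in control and 151, 199.9 and 306 CPM in HFpEF (edgeR log2 fold change −1.52 ± 0.34, adjusted p = 0.00975), and Gja5, the gap junction protein of the conduction system, had 24.8, 16.8 and 21.5 CPM in control and 25.4, 21.9 and 26.0 CPM in HFpEF and did not pass (adjusted p = 0.536 in edgeR). Gja1 was not a DEG with HFpEF 2 alone. The transcription factors Irx1 and Irx2 had 17.9, 4.50 and 4.46 CPM in control and 0.502, 0.825 and 0.715 CPM in HFpEF for Irx1 (edgeR log2 fold change −3.70 ± 1.003, adjusted p = 0.0203) and 27.5, 9.62 and 10.4 CPM in control and 1.72, 1.28 and 2.41 CPM in HFpEF for Irx2 (edgeR log2 fold change −3.12 ± 0.99, adjusted p = 0.0378). Control replicate 1 was the highest library for both. Of the 19 tested sodium channel and exchanger genes, 4 were lower, 1 was higher and 14 did not pass (median −0.48, from −0.55 without HFpEF 3 to −0.25 without control 1 and −0.74 with HFpEF 2 alone), with 2 higher DEGs without HFpEF 2 or with HFpEF 2 alone or in voom, and with 2 lower DEGs without HFpEF 1 or with HFpEF 2 alone. The call of Irx1 (log2 fold change −2.70, −3.51, −3.86 and −3.74) ended without control 1 or HFpEF 1, 2 or 3 and that of Irx2 (−2.46, −3.35, −3.09, −2.94 and −3.38) without control 1 or 3 or HFpEF 1, 2 or 3. In bulk tissue, fewer cells of a type and less RNA per cell cannot be told apart, here and for every gene group below.

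Of 34 tested genes of calcium cycling, 14 were lower DEGs and the other 20 did not pass, with a median log2 fold change of −1.08, from −1.30 without HFpEF 3 to −0.69 without control 1 and −0.58 in voom. The list held 8 without control 1 or in voom and 9 without HFpEF 1 or with HFpEF 2 alone as lower DEGs. Slc8a1, the sodium-calcium exchanger, had 467, 400.0 and 412 CPM in control and 141, 79.5 and 179 CPM in HFpEF (edgeR log2 fold change −1.68 ± 0.28, adjusted p = 0.00217). Camk2d, the main cardiac calmodulin kinase, had 126, 95.5 and 96.4 CPM in control and 44.6, 41.3 and 52.2 CPM in HFpEF (edgeR log2 fold change −1.21 ± 0.18, adjusted p = 0.00107). Casq2, which buffers calcium in the sarcoplasmic reticulum, had 2639.8, 1368 and 1504 CPM in control and 347, 371 and 672 CPM in HFpEF (edgeR log2 fold change −1.99 ± 0.38, adjusted p = 0.0048), and Cacna2d1, a subunit of the L-type channel, had a log2 fold change of −1.52 ± 0.28. The groups did not overlap in these 4 genes. Slc8a1, Camk2d, Casq2 and Cacna2d1 were also DEGs with HFpEF 2 alone (log2 fold change −2.42, −1.36, −2.31 and −2.10). Atp2a2, the calcium pump SERCA2, had 10085, 4488 and 5176 CPM in control and 1091, 1774 and 3200.3 CPM in HFpEF (edgeR log2 fold change −1.70 ± 0.49, adjusted p = 0.0259), and Ryr2, the release channel, had 1378, 1092 and 1129 CPM in control and 333, 415 and 777 CPM in HFpEF (edgeR log2 fold change −1.24 ± 0.33, adjusted p = 0.0194). HFpEF 3 was the highest HFpEF library in both. Pln, the inhibitor of SERCA2, had 5412, 2728 and 3172 CPM in control and 783, 1534 and 2219.8 CPM in HFpEF and did not pass (adjusted p = 0.0756 in edgeR). The calls of Atp2a2 (log2 fold change −1.25, −1.40 and −1.62) and Ryr2 (−1.12, −1.01 and −1.11) ended without control 1 or HFpEF 1 or 2.

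Of the 38 tested genes of the sarcomere, 10 were lower, 1 was higher and 27 did not pass. Lower DEGs numbered 5 without HFpEF 1 or 2, 16 without HFpEF 3 and 10 with HFpEF 2 alone, and the median was −1.12, −0.56 in voom. Nebl, a Z-disc protein of the nebulin family, had 183, 142 and 140.2 CPM in control and 28.3, 27.5 and 40.2 CPM in HFpEF (edgeR log2 fold change −2.28 ± 0.26, adjusted p = 0.000265). Smyd1, a methyltransferase needed for myofibril assembly, had 253, 164 and 186 CPM in control and 22.9, 32.0 and 49.9 CPM in HFpEF (edgeR log2 fold change −2.53 ± 0.37, adjusted p = 0.00104). Fbxo32, the muscle ubiquitin ligase atrogin-1, had a log2 fold change of −1.83 ± 0.25. Tcap, the titin cap, was the gene that rose, with 25.3, 22.6 and 32.2 CPM in control and 47.4, 95.9 and 101 CPM in HFpEF (edgeR log2 fold change 1.61 ± 0.40, adjusted p = 0.0146). Actc1 had 24118, 11864 and 12578 CPM in control and 2639.7, 2410.0 and 7111 CPM in HFpEF (edgeR log2 fold change −1.998 ± 0.55, adjusted p = 0.0208). Myh6 and Myh7, the fast and slow cardiac myosins, did not pass, with 21437, 4279.8 and 5367 CPM in control and 824, 5542 and 5863 CPM in HFpEF for Myh6 (adjusted p = 0.207 in edgeR) and 9465, 11896 and 12274 CPM in control and 3827, 1446 and 7192 CPM in HFpEF for Myh7 (adjusted p = 0.164 in edgeR). Control replicate 1 was the highest and HFpEF 1 the lowest library for Myh6. Nebl, Smyd1, Fbxo32 and Tcap were also DEGs with HFpEF 2 alone (log2 fold change −2.49, −2.65, −1.99 and 1.84). Of the 13 tested cardiomyocyte markers, 4 were lower and the other 9 did not pass, with a median of −1.14 (−0.48 in voom), with 0 lower DEGs without control 1 or HFpEF 1 or 2, 6 without HFpEF 3, 2 with HFpEF 2 alone and 1 in voom. The call of Actc1 (log2 fold change −1.59, −1.76 and −1.73) ended without control 1 or HFpEF 1 or 2. The log2 fold change was −2.68 for Actc1 without HFpEF 3.

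Of 25 tested genes of the fetal and hypertrophy list, 2 were lower and the other 23 did not pass, with a median of −0.57, from −0.73 without HFpEF 1 to −0.32 without HFpEF 2 and −1.17 with HFpEF 2 alone, with 2 higher DEGs without HFpEF 1 or with HFpEF 2 alone or in voom and 1 without HFpEF 3, and with 1 lower DEG without HFpEF 1 or 2, 3 without HFpEF 3 and 2 with HFpEF 2 alone. Nppa, the atrial natriuretic peptide, had 2583, 5794 and 4311 CPM in control and 2067, 251 and 1919 CPM in HFpEF, and Nppb, the B-type peptide, had 473, 517 and 492 CPM in control and 212, 77.0 and 283 CPM in HFpEF, and neither passed (adjusted p = 0.531 and 0.132 in edgeR), and every HFpEF library lay below every control library. Tnni1, the slow skeletal troponin I, fell, with 5.56, 5.74 and 6.68 CPM in control and 1.29, 0.367 and 0.536 CPM in HFpEF (edgeR log2 fold change −2.98 ± 0.49, adjusted p = 0.0018, and −3.69 without HFpEF 1).

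Of the 24 tested genes of the tricarboxylic acid cycle and of pyruvate oxidation, 11 were lower and the other 13 did not pass (median −1.14, from −1.47 without HFpEF 3 to −0.75 without control 1 and −0.53 in voom). The list held 3 without control 1 or in voom, 6 without control 3, 4 without HFpEF 1, 2 without HFpEF 2 and 5 with HFpEF 2 alone as lower DEGs. Ogdh, a subunit of the 2-oxoglutarate dehydrogenase, had 631, 309 and 358 CPM in control and 90.9, 85.3 and 135 CPM in HFpEF (edgeR log2 fold change −2.06 ± 0.35, adjusted p = 0.00224). Cs, citrate synthase, had 980.4, 549 and 590.2 CPM in control and 139, 135 and 220.1 CPM in HFpEF (edgeR log2 fold change −2.10 ± 0.42, adjusted p = 0.00545). The log2 fold changes of Idh3a and Pdha1, which act in the cycle and before it, were −1.61 and −1.30. Among 28 tested genes of glucose uptake and glycolysis, 8 were lower and the other 20 did not pass (median −0.87, −0.55 in voom), with 4 without control 1 or HFpEF 1 or 2 or with HFpEF 2 alone, 14 without HFpEF 3 and 5 in voom as lower DEGs. Hk2, the insulin-responsive hexokinase, had 77.4, 83.1 and 74.7 CPM in control and 19.02, 8.80 and 17.2 CPM in HFpEF (edgeR log2 fold change −2.38 ± 0.30, adjusted p = 0.000398), Gys1, the muscle glycogen synthase, had 228, 129.9 and 131 CPM in control and 27.5, 44.4 and 57.5 CPM in HFpEF (edgeR log2 fold change −1.92 ± 0.33, adjusted p = 0.00245), and Eno3, the muscle enolase, had 779, 241 and 303 CPM in control and 30.6, 116 and 92.9 CPM in HFpEF (edgeR log2 fold change −2.47 ± 0.47, adjusted p = 0.00412, and −1.76 without control 1). Groups did not overlap in Ogdh, Cs, Hk2, Gys1 and Eno3. Ogdh, Cs, Hk2 and Gys1 were also DEGs with HFpEF 2 alone (log2 fold change −2.34, −2.39, −3.15 and −1.88), and Eno3 was not (−1.93). Slc2a4, the insulin-responsive glucose transporter, did not pass, with 347, 145 and 165 CPM in control and 51.0, 108 and 185 CPM in HFpEF (adjusted p = 0.129 in edgeR). The call of Idh3a (log2 fold change −1.24 and −1.43) ended without control 1 or HFpEF 2 and that of Pdha1 (−1.15) without HFpEF 2.

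The nuclear genes of oxidative phosphorylation held 3 lower DEGs among 76 tested (Ndufs1, Sdha and Uqcrc2, with log2 fold changes of −2.14, −1.57 and −1.43), and the other 73 did not pass, with 2 lower DEGs without control 1 or HFpEF 1 or 2 or in voom, 5 without HFpEF 3 and 1 with HFpEF 2 alone. Their median was −0.55, from −0.83 without HFpEF 3 to −0.03 without control 1 and 0.19 in voom. Their sum was 63268, 30140.0 and 33234 CPM in control and 16474, 26396 and 37099 CPM in HFpEF, so control 1 was the highest and HFpEF 1 the lowest library. The 3 of 76 can be read against the lower DEGs among all tested genes, which were 4.41%. Of the 76, 13 had an unadjusted p under 0.05 in edgeR (against 35.8%), and 8 had groups that did not overlap (against 37.7%). With both first replicates left out, chosen after seeing the data, 0 were DEGs (median 0.21). Ndufa10l1, a copy of a complex I subunit that could share reads with it, had 126, 69.2 and 70.2 CPM in control and 7.10, 8.34 and 16.3 CPM in HFpEF (edgeR log2 fold change −3.06 ± 0.51, adjusted p = 0.0021). The 69 tested mitochondrial ribosomal proteins held 3 lower DEGs and 66 that did not pass, with a median of −0.40, from −0.57 without control 2 to −0.06 without control 1 and 0.04 in voom, with 0 lower DEGs without control 1, 8 without control 2, 1 without HFpEF 1 or 2 or with HFpEF 2 alone or in voom and 7 without HFpEF 3. The 3 of 69 can be read against the lower DEGs among all tested genes, which were 4.41%. Of the 69, 27 had an unadjusted p under 0.05 in edgeR (against 35.8%), and 16 had groups that did not overlap (against 37.7%). Of 26 symbols of genes encoded in the mitochondrial genome, 0 were in the files used here. Fatty acid uptake and oxidation had 3 lower DEGs among 35 (median −0.64, from −0.95 without HFpEF 3 to −0.10 without control 1 and 0.11 in voom), with 0 higher DEGs with HFpEF 2 alone and 2 in voom, and with 1 lower DEG without control 1 or HFpEF 1 or with HFpEF 2 alone or in voom, 2 without HFpEF 2 and 5 without HFpEF 3. Acadsb, a short branched-chain acyl-CoA dehydrogenase, had 35.8, 32.1 and 32.7 CPM in control and 15.3, 10.7 and 13.8 CPM in HFpEF (edgeR log2 fold change −1.34 ± 0.17, adjusted p = 0.000362). Acsl1, which activates fatty acids, had a log2 fold change of −1.62, and Cpt1b, the rate-limiting entry step into muscle mitochondria, had 787, 291 and 340.4 CPM in control and 119, 227 and 384 CPM in HFpEF and did not pass (adjusted p = 0.144 in edgeR). Oxct1, the enzyme that commits ketone bodies to oxidation, had 2138, 1462 and 1542 CPM in control and 433, 309 and 726 CPM in HFpEF (edgeR log2 fold change −1.81 ± 0.45, adjusted p = 0.0144). Ndufa10l1, Ndufs1, Acadsb and Oxct1 were also DEGs with HFpEF 2 alone (log2 fold change −3.40, −2.68, −1.64 and −2.48), and Sdha was not (−1.81). The calls of Uqcrc2 (log2 fold change −1.09, −1.23 and −1.40) and Acsl1 (−0.77, −1.33 and −1.66) ended without control 1 or HFpEF 1 or 2 and that of Oxct1 (−1.56) without HFpEF 2.

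Of the 24 tested genes of the PPAR-alpha and ketone list, 7 were lower, 4 were higher and 13 did not pass (median −0.71, from −0.96 without HFpEF 3 to −0.37 without control 1 and −0.16 in voom). When only the 6 libraries were fitted, 4 were lower and 2 were higher DEGs, and in voom 7 were lower and 6 were higher. Ppara, the receptor that drives fatty acid oxidation genes, had 38.8, 16.5 and 14.8 CPM in control and 3.30, 5.32 and 6.97 CPM in HFpEF (edgeR log2 fold change −2.17 ± 0.39, adjusted p = 0.00283). Esrrg, an orphan receptor that drives mitochondrial genes, had 35.4, 28.9 and 26.3 CPM in control and 6.17, 7.52 and 8.57 CPM in HFpEF (edgeR log2 fold change −2.03 ± 0.31, adjusted p = 0.00127). In the other direction, Angptl4, an inhibitor of lipoprotein lipase, had 1.22, 1.32 and 0.955 CPM in control and 71.3, 23.7 and 49.8 CPM in HFpEF (edgeR log2 fold change 5.36 ± 0.44, adjusted p = 5.04e-05), the smallest adjusted p-value of all tested genes. Pparg, the receptor of fat storage, had 11.7, 9.31 and 10.3 CPM in control and 14.9, 36.1 and 30.4 CPM in HFpEF (edgeR log2 fold change 1.37 ± 0.30, adjusted p = 0.00826). For Angptl4 and Pparg the 3 HFpEF libraries lay above all control libraries. Ppara, Esrrg, Angptl4, Pparg and Txnip were also DEGs with HFpEF 2 alone (log2 fold change −2.13, −2.005, 4.33, 1.79 and 1.37). Pdk4, which blocks pyruvate oxidation, had 36.3, 23.7 and 26.9 CPM in control and 55.2, 28.5 and 140.0 CPM in HFpEF and did not pass (adjusted p = 0.111 in edgeR). Txnip, an inhibitor of thioredoxin and of glucose uptake, was among the most abundant DEGs that rose, with 508, 516 and 517 CPM in control and 1959, 1329 and 2489 CPM in HFpEF (edgeR log2 fold change 1.91 ± 0.26, adjusted p = 0.00061).

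**Figure D2:**
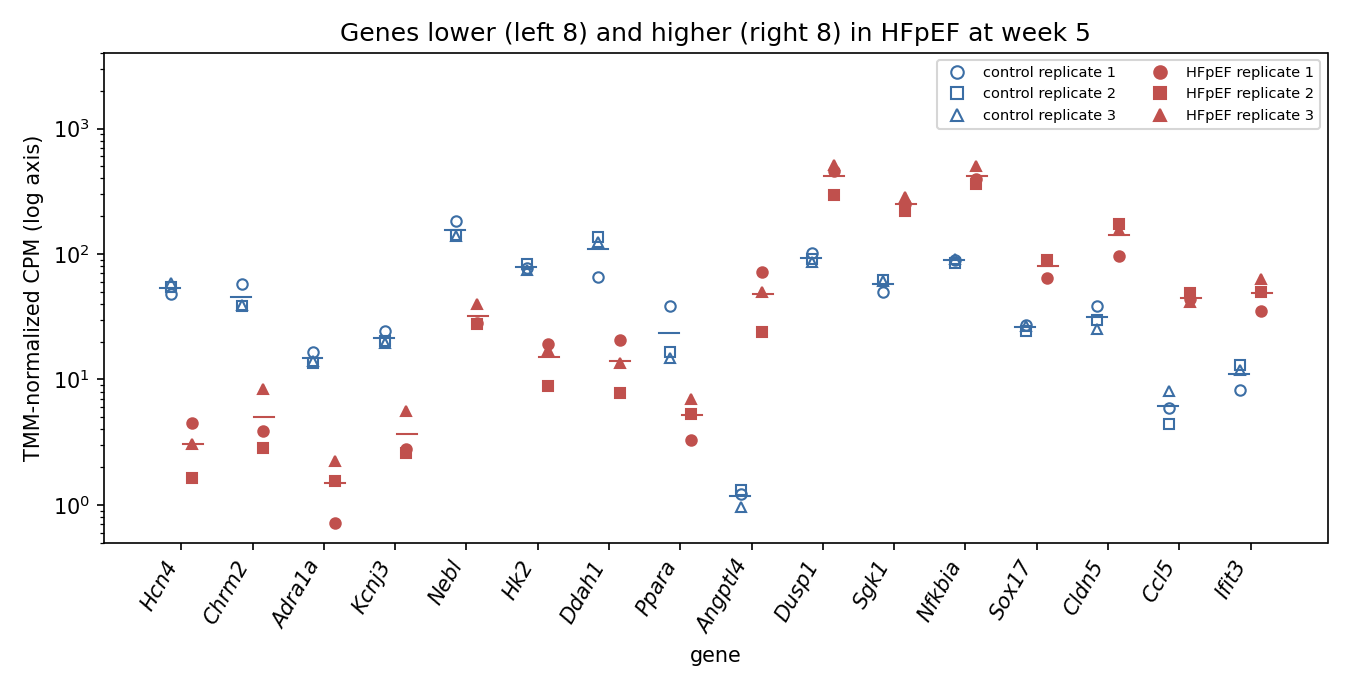
TMM-normalized CPM (log axis) of 16 genes in each control library (open blue symbols) and each HFpEF library (filled red symbols) of week 5, with group means as lines. In Hcn4, at 48.0 to 59.0 CPM in control and 1.65 to 4.52 CPM in HFpEF, and in Angptl4, at 0.955 to 1.32 and 23.7 to 71.3 CPM, the groups lie far apart.

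L-NAME acts on NO synthesis, and of the 38 tested genes of the NO and cGMP list 3 were lower, 3 were higher and 32 did not pass, with a median of 0.19, from 0.11 without HFpEF 2 to 0.23 without HFpEF 3 and 0.09 in voom, with 2 higher DEGs without control 3 and 7 without HFpEF 1 or with HFpEF 2 alone, and with 2 lower DEGs without control 1 or HFpEF 1 or with HFpEF 2 alone or in voom. Ddah1, which breaks down the endogenous inhibitor of NO synthase, had 66.0, 136 and 124 CPM in control and 20.7, 7.79 and 13.6 CPM in HFpEF (edgeR log2 fold change −2.95 ± 0.44, adjusted p = 0.00104). Pde3a, the phosphodiesterase that cGMP inhibits, had 77.3, 54.4 and 57.9 CPM in control and 26.3, 17.6 and 25.5 CPM in HFpEF (edgeR log2 fold change −1.44 ± 0.25, adjusted p = 0.0027), and Cav3, the caveolin of muscle, had a value of −1.19. Gch1, the rate-limiting enzyme for the cofactor tetrahydrobiopterin, had 4.33, 4.34 and 3.66 CPM in control and 6.96, 10.3 and 10.1 CPM in HFpEF (edgeR log2 fold change 1.14 ± 0.22, adjusted p = 0.00495). Every HFpEF library lay above the control libraries for Gch1 and below them for Ddah1 and Pde3a. In week 9 control Ddah1 had 8.01, 5.90 and 16.1 CPM, near or below its level in HFpEF at week 5. Ddah1, Pde3a, Gch1 and Pde1c were also DEGs with HFpEF 2 alone (log2 fold change −3.80, −1.84, 1.32 and 2.06), and Ass1 was not (0.27). Ass1, which recycles citrulline to arginine, had 4.33, 7.29 and 8.12 CPM in control and 17.4, 7.98 and 14.9 CPM in HFpEF (edgeR log2 fold change 1.03 ± 0.28, adjusted p = 0.0214), and the phosphodiesterase Pde1c had 1.88, 2.33 and 1.11 CPM in control and 5.96, 7.43 and 3.84 CPM in HFpEF (edgeR log2 fold change 1.69 ± 0.42, adjusted p = 0.0142). The 3 NO synthases did not pass. Nos3, the endothelial enzyme, had 194, 129 and 163 CPM in control and 141, 408 and 311 CPM in HFpEF (edgeR log2 fold change 0.82 ± 0.29, adjusted p = 0.0569), where HFpEF 1 lay among the control libraries. Without that library its log2 fold change was 1.15 (adjusted p = 0.00487 in edgeR). Nos2, the inducible enzyme, had 6.22, 4.19 and 5.89 CPM in control and 1.79, 8.53 and 5.18 CPM in HFpEF, and Nos1, the neuronal one, was at 1.72 CPM or lower in each library. Npr1, the receptor of natriuretic peptides that makes cGMP, had 83.8, 74.7 and 77.3 CPM in control and 97.6, 209 and 142 CPM in HFpEF and passed the adjusted p-value (0.0143 in edgeR) but not the fold threshold, as did Pde2a, a cGMP-stimulated phosphodiesterase, with 88.2, 69.1 and 71.7 CPM in control and 89.7, 219 and 148 CPM in HFpEF. The call of Cav3 (log2 fold change −0.94, −0.92 and −1.18) ended without control 1 or HFpEF 1 or 2, that of Ass1 (0.81, 0.79 and 0.95) without control 1 or HFpEF 1 or 3, and that of Pde1c (1.44) without control 3.

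Of 55 tested genes of receptor signaling that activates protein kinase C, 5 were lower and the other 50 did not pass (median 0.10, from −0.04 without HFpEF 2 to 0.13 without control 2, −0.05 with HFpEF 2 alone and 0.04 in voom), with 2 higher DEGs without HFpEF 1 or 2 or with HFpEF 2 alone and 1 without HFpEF 3 or in voom. Prkce, the epsilon isoform, had 27.2, 20.1 and 20.5 CPM in control and 5.53, 8.80 and 10.003 CPM in HFpEF (edgeR log2 fold change −1.48 ± 0.24, adjusted p = 0.00185), and Prkar2a, a regulatory subunit of protein kinase A, had 42.6, 34.1 and 32.7 CPM in control and 14.7, 10.9 and 15.2 CPM in HFpEF (edgeR log2 fold change −1.42 ± 0.22, adjusted p = 0.00127). In both genes the groups did not overlap. Of the 55, 31 had an unadjusted p under 0.05 in edgeR (against 35.8% of all tested genes), and 30 had groups that did not overlap (against 37.7%). Prkce and Prkar2a were also DEGs with HFpEF 2 alone (log2 fold change −1.36 and −1.74). Of 31 tested genes of the renin-angiotensin, endothelin and adrenergic systems, 3 were lower, 1 was higher and 27 did not pass (median 0.10, from −0.06 without HFpEF 1 to 0.18 without control 3, −0.07 with HFpEF 2 alone and −0.03 in voom), with 0 higher DEGs without control 1, 2 or 3 or HFpEF 1 or 2 or with HFpEF 2 alone or in voom, and with 1 lower DEG without control 1 or in voom, 2 without control 2 or 3 or HFpEF 1 or 2 and 3 with HFpEF 2 alone. Adrb1, the main cardiac beta receptor, had 11.8, 9.23 and 9.15 CPM in control and 2.22, 2.02 and 6.43 CPM in HFpEF (edgeR log2 fold change −1.500 ± 0.45, adjusted p = 0.0298), and Adcy5, a cardiac adenylyl cyclase, had a log2 fold change of −1.35. The call of Adrb1 (log2 fold change −1.37, −1.56, −1.56, −1.24 and −1.23) ended without control 1, 2 or 3 or HFpEF 1 or 2 and that of Adcy5 (−0.97) without control 1. The log2 fold change was −2.23 for Adrb1 without HFpEF 3.

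Of 33 tested immediate early genes, 16 were higher and the other 17 did not pass, and their median was 1.30, with 0.77 and 9 higher DEGs with HFpEF 2 alone. Dusp1, a phosphatase of MAP kinases, had 102, 91.2 and 86.9 CPM in control and 457, 296 and 513 CPM in HFpEF (edgeR log2 fold change 2.18 ± 0.21, adjusted p = 0.000148). Zfp36, which destabilizes cytokine transcripts, had 45.5, 41.4 and 43.7 CPM in control and 258, 111 and 242 CPM in HFpEF (edgeR log2 fold change 2.23 ± 0.24, adjusted p = 0.000191). Btg2, an antiproliferative gene, had 70.4, 62.9 and 68.7 CPM in control and 138, 143 and 187 CPM in HFpEF (edgeR log2 fold change 1.21 ± 0.16, adjusted p = 0.00061). In these 3 genes all HFpEF libraries lay above all control libraries. Egr1, a zinc finger transcription factor, had 13.5, 27.9 and 26.3 CPM in control and 104, 60.0 and 118 CPM in HFpEF (edgeR log2 fold change 2.06 ± 0.53, adjusted p = 0.0162). Fos had 1.88, 14.0 and 11.9 CPM in control and 75.6, 10.8 and 53.8 CPM in HFpEF (edgeR log2 fold change 2.32 ± 0.73, adjusted p = 0.0377), so HFpEF 2 lay among the control libraries. Dusp1, Zfp36 and Btg2 were also DEGs with HFpEF 2 alone (log2 fold change 1.67, 1.35 and 1.09), and Egr1 and Fos were not (1.41 and 0.21). Jun had 122, 157 and 160.3 CPM in control and 241, 251 and 297 CPM in HFpEF, which passed the adjusted p-value (0.00289 in edgeR) but not the fold threshold. The call of Egr1 (log2 fold change 1.80) ended without control 1 and that of Fos (1.85, 2.74, 2.54, 1.79 and 2.21) without control 1, 2 or 3 or HFpEF 1 or 3.

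The promoters of these genes are shown because 16 of them were DEGs. RefSeq (GRCr8) gave the 250 bases before the start for 23 of the 34 listed immediate early genes. The cAMP response element TGACGTCA, searched on both strands, was in 5 of the 23, against 2.78% of the 9760 promoters of tested genes and 1.7% of the 27457 of all genes, and in 3 of the 13 higher DEGs with a promoter (Dusp1, Btg2 and Ier2). It was in 2.06% of all higher and 3.61% of all lower DEGs with a promoter. The CArG box, which serum response factor binds, was also in 5 of the 23, against 1.12% for tested genes and 1.5% for all genes, and in 3 of the 13 higher DEGs (Zfp36, Klf6 and Egr1). Of all higher and all lower DEGs 1.55% and 1.44% held it. Capitals mark the motif in each sequence, written 5′ to 3′ along the gene. Dusp1 (chr10:17184603-17184852, plus strand) and Btg2 (chr13:48087691-48087940, minus strand) each held 1 match of the response element, Egr1 (chr18:26736828-26737077, plus strand) held 2 CArG boxes and Zfp36 (chr1:92799109-92799358, minus strand) held 1. A match is a description and not a binding site.
Dusp1: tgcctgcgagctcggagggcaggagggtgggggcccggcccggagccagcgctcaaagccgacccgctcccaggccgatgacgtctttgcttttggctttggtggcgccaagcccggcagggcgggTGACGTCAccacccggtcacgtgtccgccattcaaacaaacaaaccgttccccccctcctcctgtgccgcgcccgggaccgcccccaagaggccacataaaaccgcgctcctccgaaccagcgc
Btg2: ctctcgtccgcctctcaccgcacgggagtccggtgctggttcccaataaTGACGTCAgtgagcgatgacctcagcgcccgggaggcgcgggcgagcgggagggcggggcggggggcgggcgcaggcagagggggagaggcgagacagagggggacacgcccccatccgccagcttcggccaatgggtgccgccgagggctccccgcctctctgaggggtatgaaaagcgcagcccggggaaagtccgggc
Egr1: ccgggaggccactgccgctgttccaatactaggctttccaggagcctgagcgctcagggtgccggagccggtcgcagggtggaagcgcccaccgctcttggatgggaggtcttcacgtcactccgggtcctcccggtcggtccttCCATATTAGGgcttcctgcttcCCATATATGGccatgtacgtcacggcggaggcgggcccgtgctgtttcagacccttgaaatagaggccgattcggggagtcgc
Zfp36: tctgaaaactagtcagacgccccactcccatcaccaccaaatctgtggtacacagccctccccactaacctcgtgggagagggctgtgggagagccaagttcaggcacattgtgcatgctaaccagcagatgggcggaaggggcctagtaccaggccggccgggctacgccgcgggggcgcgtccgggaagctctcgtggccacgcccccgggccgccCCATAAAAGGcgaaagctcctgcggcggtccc

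Of 28 tested genes of the NF-kB list, 4 were higher, 1 was lower and 23 did not pass (median 0.36), with 2 higher DEGs without control 2 or 3 and 1 with HFpEF 2 alone, and with 0 lower DEGs without control 1, 2 or 3 or HFpEF 1 or 2 or with HFpEF 2 alone or in voom. Nfkbia, the inhibitor that NF-kB itself induces, had 90.3, 84.6 and 91.8 CPM in control and 393, 359 and 506 CPM in HFpEF (edgeR log2 fold change 2.24 ± 0.25, adjusted p = 0.000202). Vcam1, an adhesion molecule for leukocytes, had 17.7, 25.0 and 21.0 CPM in control and 105, 66.1 and 51.4 CPM in HFpEF (edgeR log2 fold change 1.80 ± 0.40, adjusted p = 0.00901), and Icam1 had 30.8, 36.8 and 37.2 CPM in control and 62.6, 63.0 and 42.7 CPM in HFpEF and did not pass (adjusted p = 0.0543 in edgeR). Sgk1, a serum and glucocorticoid regulated kinase that acts on sodium transport, had 50.1, 61.4 and 61.3 CPM in control and 251, 221 and 282 CPM in HFpEF (edgeR log2 fold change 2.12 ± 0.22, adjusted p = 0.000184). The lowest HFpEF value of Sgk1 was over 3 times the highest control value. Serpina3n, an acute phase protease inhibitor, had 0.0942, 1.16 and 1.03 CPM in control and 185, 13.8 and 51.8 CPM in HFpEF (edgeR log2 fold change 6.70 ± 1.42, adjusted p = 0.00722), highest in HFpEF 1, and its log2 fold change was 5.36 without that library. Per1, a clock gene, rose alone among the 15 tested clock genes, with 54.9, 71.9 and 72.2 CPM in control and 283, 139 and 313 CPM in HFpEF (edgeR log2 fold change 1.88 ± 0.31, adjusted p = 0.00199). Nfkbia and Sgk1 were also DEGs with HFpEF 2 alone (log2 fold change 2.01 and 1.94), and Vcam1, Serpina3n and Per1 were not (1.64, 4.12 and 1.07).

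Among 44 tested cytokine and chemokine genes, 10 were higher and the other 34 did not pass (median 0.66, from 0.38 without HFpEF 1 to 0.80 without HFpEF 3 and 0.18 with HFpEF 2 alone). Higher DEGs numbered 4 without control 1 or 2, 3 without control 3 and 6 with HFpEF 2 alone. When only the 6 libraries were fitted there were 2 higher DEGs in this list. Ccl5, which attracts T cells, had 5.94, 4.42 and 8.04 CPM in control and 43.8, 49.1 and 41.5 CPM in HFpEF (edgeR log2 fold change 2.87 ± 0.45, adjusted p = 0.00138), and the 3 HFpEF libraries were close to each other. Ccl21, a chemokine of lymphatic endothelium, had 26.1, 81.8 and 19.2 CPM in control and 865, 174 and 283 CPM in HFpEF (edgeR log2 fold change 3.38 ± 0.71, adjusted p = 0.00722), with 2.43 without HFpEF 1 and 4.28 without control 2. Ccl2, which attracts monocytes, had 16.6, 20.9 and 18.9 CPM in control and 45.6, 20.9 and 26.2 CPM in HFpEF and did not pass (adjusted p = 0.205 in edgeR). The most abundant DEG of the group was Cxcl12, with 384, 217 and 243 CPM in control and 423, 705 and 649 CPM in HFpEF (edgeR log2 fold change 1.08 ± 0.27, adjusted p = 0.0152). Of the 18 tested lymphocyte markers, 7 were higher and the other 11 did not pass (median 1.25), with 1 without control 1 or 3 or HFpEF 1, 2 without control 2 or HFpEF 3, 4 without HFpEF 2, 0 with HFpEF 2 alone and 12 in voom as higher DEGs. The 20 markers in the files summed to 92.5, 145 and 132 CPM in control and 283, 126 and 199 CPM in HFpEF, with Cd4 as the most abundant. Cd2, a T cell adhesion receptor, had 3.86, 3.18 and 3.82 CPM in control and 14.2, 10.2 and 11.5 CPM in HFpEF (edgeR log2 fold change 1.72 ± 0.38, adjusted p = 0.00885), and Cd8a, a coreceptor of cytotoxic T cells, had 4.15, 4.89 and 4.38 CPM in control and 20.4, 11.7 and 16.4 CPM in HFpEF (edgeR log2 fold change 1.85 ± 0.49, adjusted p = 0.0186). Of the 26 tested macrophage and myeloid markers, 0 were DEGs in edgeR, DESeq2 and voom, 1 had an unadjusted p under 0.05 in edgeR (against 35.8% of all tested genes), and 1 had groups that did not overlap (against 37.7%), with 2 higher DEGs without HFpEF 2 and 0 with HFpEF 2 alone, and with 1 lower DEG without HFpEF 1 and 2 with HFpEF 2 alone (median 0.50, from 0.05 without HFpEF 1 to 0.80 without HFpEF 2, −0.57 with HFpEF 2 alone and 0.20 in voom). The 27 in the files summed to 1919, 4567 and 3937 CPM in control and 5806, 1572 and 3358 CPM in HFpEF, with Cd74 as the most abundant, HFpEF 2 as the lowest library and HFpEF 1 as the highest. Ccl5 and Cxcl12 were also DEGs with HFpEF 2 alone (log2 fold change 2.997 and 1.33), and Ccl21, Cd2 and Cd8a were not (2.03, 1.49 and 1.39). The call of Cxcl12 (log2 fold change 0.92, 0.98 and 0.93) ended without control 2 or 3 or HFpEF 2 and that of Cd8a (1.81, 1.84 and 1.65) without control 1 or 3 or HFpEF 1.

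In the interferon response 9 of 33 tested genes were higher DEGs while the other 24 did not pass, and 32 of the 33 had a positive log2 fold change (median 0.78, from 0.57 without HFpEF 2 to 1.14 with that library alone). Higher DEGs numbered 6 without HFpEF 2, 13 with that library alone and 4 when only the 6 libraries were fitted. Ifit3, which blocks viral RNA, had 8.20, 13.0 and 11.9 CPM in control and 35.4, 49.8 and 62.6 CPM in HFpEF (edgeR log2 fold change 2.15 ± 0.32, adjusted p = 0.0011). Ifit2, its neighbor in the family, had 55.1, 60.2 and 62.2 CPM in control and 116, 199 and 168 CPM in HFpEF (edgeR log2 fold change 1.44 ± 0.22, adjusted p = 0.00129). Rtp4, another interferon-induced gene, had 11.1, 19.01 and 16.5 CPM in control and 28.5, 51.4 and 34.7 CPM in HFpEF (edgeR log2 fold change 1.29 ± 0.28, adjusted p = 0.00821). None of these 3 genes overlapped between the groups. Ifit3, Ifit2 and Rtp4 were also DEGs with HFpEF 2 alone (log2 fold change 2.17, 1.75 and 1.72). In week 9 control Ifit3 had 64.2, 91.6 and 49.2 CPM, Ifit2 had 187, 258 and 143 CPM and Rtp4 had 41.2, 53.3 and 27.9 CPM. These levels are near or above those of HFpEF at week 5. Ifit1 had 27.7, 29.5 and 31.2 CPM in control and 19.7, 39.2 and 31.9 CPM in HFpEF and did not pass (adjusted p = 0.956 in edgeR). RefSeq held promoters for 24 of the 35 listed genes, and the core of the interferon-stimulated response element, GAAA followed by any 2 bases and GAAA again, was in 14 of them on either strand, against 2.7% of the promoters of tested genes and 3.29% of all promoters (5.93% for all higher and 1.2% for all lower DEGs). Among the 5 higher DEGs with a promoter, 3 held it (Ifit3, Oas1a and Oas1b). It is shown for Ifit3 (chr1:241527076-241527325, plus strand), where the match lies on the other strand.
Ifit3: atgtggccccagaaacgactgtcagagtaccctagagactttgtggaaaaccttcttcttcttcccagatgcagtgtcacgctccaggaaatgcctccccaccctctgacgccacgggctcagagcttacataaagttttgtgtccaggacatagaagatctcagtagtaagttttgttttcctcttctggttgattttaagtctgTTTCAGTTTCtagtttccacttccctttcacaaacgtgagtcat

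Of 19 tested endothelial markers, 7 were higher and the other 12 did not pass, all 19 had a positive log2 fold change, and the median was 0.78, and the list held 4 without control 2 and 8 with HFpEF 2 alone as higher DEGs. Sox17, a transcription factor of arterial endothelium, had 27.0, 24.5 and 26.5 CPM in control and 63.9, 89.6 and 88.2 CPM in HFpEF (edgeR log2 fold change 1.63 ± 0.18, adjusted p = 0.000188). Cldn5, a tight junction protein, had 38.8, 29.9 and 25.2 CPM in control and 96.9, 173 and 156 CPM in HFpEF (edgeR log2 fold change 2.18 ± 0.34, adjusted p = 0.00129). Esam, an adhesion molecule of endothelial junctions, had 141, 94.9 and 111 CPM in control and 149, 314 and 318 CPM in HFpEF (edgeR log2 fold change 1.17 ± 0.26, adjusted p = 0.00847), and Vwf, the von Willebrand factor, had 255, 308 and 328 CPM in control and 546, 593 and 651 CPM in HFpEF (edgeR log2 fold change 1.01 ± 0.27, adjusted p = 0.0198). The groups did not overlap in these 4 genes. Sox17, Cldn5 and Esam were also DEGs with HFpEF 2 alone (log2 fold change 1.78, 2.47 and 1.44), and Vwf was not (0.997). In week 9 control Sox17 had 247, 251 and 148 CPM, Cldn5 had 211, 309 and 133 CPM and Esam had 373, 478 and 295 CPM. These levels are near or above those of HFpEF at week 5. Cdh5, the cadherin of all endothelium, had 227, 199.9 and 232 CPM in control and 144, 373 and 308 CPM in HFpEF and did not pass (adjusted p = 0.405 in edgeR). The list summed to 3106, 2578 and 2910.4 CPM in control and 3316, 6110.2 and 5299 CPM in HFpEF, with Eng as its most abundant gene. Of 30 tested genes of angiogenesis, 2 were higher and the other 28 did not pass (median 0.32, from 0.15 without HFpEF 2 to 0.48 without HFpEF 1 and 0.48 with HFpEF 2 alone), with 5 higher DEGs without HFpEF 1 and 6 with HFpEF 2 alone, and with 0 lower DEGs with HFpEF 2 alone and 2 in voom. Angpt2, which destabilizes vessels, had 15.5, 13.6 and 15.2 CPM in control and 76.2, 38.2 and 58.2 CPM in HFpEF (edgeR log2 fold change 1.96 ± 0.33, adjusted p = 0.00195), above all control libraries in each HFpEF library. The call of Vwf (log2 fold change 0.91 and 0.94) ended without control 1 or HFpEF 3.

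Of 9 tested adipocyte markers, 3 were higher, Fabp4, Lipe and Pparg, and the other 6 did not pass (median 1.38, 0.59 with HFpEF 2 alone), with 2 higher DEGs without control 2 or 3 or HFpEF 2 or 3, 3 with HFpEF 2 alone and 5 in voom. Lipe, the hormone-sensitive lipase, had 76.4, 64.1 and 74.2 CPM in control and 139, 359 and 313 CPM in HFpEF (edgeR log2 fold change 1.92 ± 0.34, adjusted p = 0.00263), and Fabp4, which endothelial cells also make, had 932, 541 and 618 CPM in control and 648, 3003 and 1958 CPM in HFpEF (edgeR log2 fold change 1.42 ± 0.45, adjusted p = 0.038). Plin1, a defining adipocyte gene, was at no more than 0.933 CPM in any library and did not pass. The call of Fabp4 (log2 fold change 1.27, 1.34, 0.90 and 1.39) ended without control 2 or 3 or HFpEF 2 or 3.

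Collagen and fibroblast genes varied widely between the control libraries. Of the 21 tested collagen chains, 1 was higher and the other 20 did not pass (median −0.07, from −0.80 without HFpEF 1 to 0.09 without control 2, −0.87 with HFpEF 2 alone and −0.73 in voom), with 0 higher DEGs without control 1, 2 or 3 or HFpEF 1 or with HFpEF 2 alone or in voom, 3 without HFpEF 2 and 2 without HFpEF 3, and with 4 lower DEGs without control 1, 0 with HFpEF 2 alone and 9 in voom. Col1a1 had 496, 9900.5 and 7974 CPM in control and 2542, 839.6 and 1469 CPM in HFpEF (edgeR log2 fold change −1.92 ± 0.87, adjusted p = 0.126) and Col3a1 had 1319.9, 25573 and 20226 CPM in control and 9269.7, 4081 and 6497 CPM in HFpEF (edgeR log2 fold change −1.25 ± 0.73, adjusted p = 0.23). Postn, a matrix protein of activated fibroblasts, had 45.6, 4079 and 3528 CPM in control and 1179, 127 and 879.6 CPM in HFpEF (edgeR log2 fold change −1.81 ± 1.20, adjusted p = 0.293). In all 3 genes, control replicates 2 and 3 were the highest of the 6 libraries and control 1 was the lowest. With control 1 left out, their log2 fold changes were −2.46, −1.79 and −2.38 (adjusted p = 0.0397, 0.0358 and 0.127 in edgeR). Of 48 tested genes of matrix remodeling, 3 were higher, 3 were lower and 42 did not pass (median −0.21, from −0.58 without control 1 to 0.17 without control 2, −0.74 with HFpEF 2 alone and −0.54 in voom), with 2 higher DEGs without control 1, 2 or 3 and 1 without HFpEF 1 or with HFpEF 2 alone, and with 5 lower DEGs without control 1, 0 without control 2 or 3 or HFpEF 2 or 3 or with HFpEF 2 alone, 1 without HFpEF 1 and 7 in voom. Of the 17 fibroblast markers, 1 was lower and the other 16 did not pass (median −0.21, from −0.66 without control 1 to 0.10 without control 2, −0.41 with HFpEF 2 alone and −0.64 in voom), with 4 lower DEGs without control 1, 0 without control 2 or 3 or HFpEF 1, 2 or 3 or with HFpEF 2 alone and 6 in voom. Cthrc1, a gene of activated fibroblasts, had 3.01, 471 and 393 CPM in control and 41.0, 4.13 and 18.5 CPM in HFpEF (edgeR log2 fold change −3.76 ± 1.22, adjusted p = 0.0417), and Lox, which cross-links collagen, had 9.70, 146 and 113 CPM in control and 31.0, 8.99 and 16.3 CPM in HFpEF (edgeR log2 fold change −2.25 ± 0.67, adjusted p = 0.0309). Control replicates 2 and 3 were far above the other 4 libraries in both genes. Timp4, the cardiac inhibitor of matrix metalloproteinases, had 30.6, 19.2 and 21.3 CPM in control and 31.4, 102 and 103 CPM in HFpEF (edgeR log2 fold change 1.73 ± 0.42, adjusted p = 0.013), and HFpEF 1 lay close to the highest control library there. The 38 tested genes of TGF-beta signaling held 2 higher DEGs and 36 that did not pass (median 0.28, from 0.13 without control 1 to 0.52 without control 2, −0.03 with HFpEF 2 alone and 0.02 in voom), with 1 higher DEG without control 1, 2 or 3 or HFpEF 1 or 3 and 2 with HFpEF 2 alone. Id1, a target of BMP signaling, had 85.6, 56.9 and 59.5 CPM in control and 162, 251 and 229.5 CPM in HFpEF (edgeR log2 fold change 1.67 ± 0.24, adjusted p = 0.000851). Timp4 and Id1 were also DEGs with HFpEF 2 alone (log2 fold change 2.11 and 1.90), and Cthrc1 and Lox were not (−6.13 and −3.32). The call of Cthrc1 (log2 fold change −3.21, −3.47, −4.67, −3.27 and −3.67) ended without control 2 or 3 or HFpEF 1, 2 or 3 and that of Lox (−1.71, −2.04, −1.92 and −2.16) without control 2 or 3 or HFpEF 2 or 3.

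Many of the largest rises on the log2 scale were those of cartilage, bone, nerve and mesothelial genes, and in most of them HFpEF 1 was far above the others. Of the 20 tested genes of bone, cartilage and tendon matrix, 8 were higher and the other 12 did not pass, with a median of 1.89 (the same with Ibsp at its bound), of 0.73 without HFpEF 1, of 2.39 without HFpEF 2, of 0.12 with HFpEF 2 alone and of 0.70 in voom. The list held 1 without control 1 or with HFpEF 2 alone, 3 without control 2, 2 without control 3, 0 without HFpEF 1 and 4 in voom as higher DEGs. Ibsp, the bone sialoprotein, had 0 counts in all control libraries and 996, 8 and 12 counts in HFpEF, at least 339-fold higher than a floor of 3 counts over the control group. Col2a1 had 1, 2 and 0 counts in control and 15993, 1 and 20 counts in HFpEF, a ratio of 5340 (exact 95% counting interval 1830 to 25900) that rested on replicate 1. Neither Ibsp nor Col2a1 was called without HFpEF 1 (adjusted p = 0.23 and 0.495 in edgeR) or without any 1 of the control libraries (adjusted p from 0.0548 to 0.0701). Comp, a matrix protein of cartilage and tendon, had 1.51, 2.56 and 1.19 CPM in control and 402, 3.30 and 29.4 CPM in HFpEF (edgeR log2 fold change 6.35 ± 1.51, adjusted p = 0.012). Col9a1 and Col9a3, collagens of cartilage, had 0.188, 0.0776 and 0.159 CPM in control and 45.2, 0.550 and 0.357 CPM in HFpEF for Col9a1 (edgeR log2 fold change 6.67 ± 1.73, adjusted p = 0.017) and 1.13, 1.01 and 1.03 CPM in control and 176, 2.29 and 3.13 CPM in HFpEF for Col9a3 (edgeR log2 fold change 5.83 ± 1.57, adjusted p = 0.02). The call of Comp (log2 fold change 3.21) ended without HFpEF 1, that of Col9a1 (6.90, 6.38 and 6.78) without control 1, 2 or 3, and that of Col9a3 (5.88, 5.80, 5.82 and 1.35) without control 1, 2 or 3 or HFpEF 1. Without HFpEF 1, Col9a1 had too few counts to be tested.

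Of 15 tested Schwann and nerve markers, 4 were higher and the other 11 did not pass (median 1.85, from 0.50 without HFpEF 1 to 2.25 without HFpEF 2, 0.25 with HFpEF 2 alone and 1.08 in voom), with 1 higher DEG without control 2, 0 without control 3 or HFpEF 1 or with HFpEF 2 alone, 7 without HFpEF 2 or in voom and 6 without HFpEF 3. Of 9 tested mesothelial and epicardial markers, 3 were higher and the other 6 did not pass (median 1.25, 0.39 with HFpEF 2 alone), with 2 higher DEGs without control 1 or HFpEF 1 or 3 and 1 without control 2 or 3 or with HFpEF 2 alone. Msln, mesothelin, had 0, 0.310 and 0.159 CPM in control and 16.7, 0.550 and 0.357 CPM in HFpEF (edgeR log2 fold change 5.08 ± 1.56, adjusted p = 0.0336). Gal, the neuropeptide galanin, had 0.188, 0.310 and 0 CPM in control and 23.9, 0.458 and 8.93 CPM in HFpEF (edgeR log2 fold change 5.97 ± 1.80, adjusted p = 0.0317). Ltk, a receptor tyrosine kinase, was high in all 3 HFpEF libraries, with 0.0942, 0.0776 and 0.239 CPM in control and 9.40, 3.76 and 4.20 CPM in HFpEF (edgeR log2 fold change 5.27 ± 0.54, adjusted p = 0.000184, and 5.90 without control 3). Ltk was also a DEG with HFpEF 2 alone (log2 fold change 4.64), and Msln and Gal were not (1.67 and 1.40). The calls of Msln (log2 fold change 4.59, 5.93, 5.06 and 1.40) and Gal (6.05, 6.81, 5.39 and 4.72) ended without control 1, 2 or 3 or HFpEF 1.

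Of 36 tested genes of the unfolded protein and integrated stress response, 0 were DEGs in edgeR and in DESeq2 and 2 were in voom, 10 had an unadjusted p under 0.05 in edgeR (against 35.8% of all tested genes), 11 had groups that did not overlap (against 37.7%), and the median was 0.11, from −0.13 without HFpEF 1 to 0.21 without HFpEF 2, −0.22 with HFpEF 2 alone and −0.01 in voom, with 1 higher DEG without HFpEF 1, 2 or 3 and 2 with HFpEF 2 alone or in voom. Of 36 tested heat shock and chaperone genes, 4 were lower and the other 32 did not pass (median −0.53, from −0.61 without HFpEF 3 to −0.33 without control 1, −0.90 with HFpEF 2 alone and −0.31 in voom), with 2 lower DEGs without control 1, 1 without HFpEF 1 or 2 or in voom, 7 without HFpEF 3 and 3 with HFpEF 2 alone. Hspa9, the mitochondrial Hsp70, had 702, 353 and 387 CPM in control and 126, 91.2 and 191 CPM in HFpEF (edgeR log2 fold change −1.82 ± 0.40, adjusted p = 0.00826). The 76 tested cytosolic ribosomal proteins, whose near-identical copies could share reads, held 0 DEGs in edgeR, DESeq2 and voom, while 54 had an unadjusted p under 0.05 in edgeR, against 35.8% of all tested genes. In all, 72 of them had a positive log2 fold change, and the groups did not overlap in 56, against 37.7% of all tested genes (median 0.35). The list held 1 higher DEG without control 1, without HFpEF 1 or 3 and with upper quartile normalization. Of 38 tested genes of oxidative stress, 4 were higher, 3 were lower and 31 did not pass (median −0.08, from −0.24 without HFpEF 1 to −0.03 without HFpEF 2 and −0.47 with HFpEF 2 alone), with 2 higher DEGs without control 1, 2 or 3 or HFpEF 1 or with HFpEF 2 alone, and with 0 lower DEGs without control 1, 2 without control 2 and 1 without control 3 or HFpEF 1 or 2 or with HFpEF 2 alone or in voom. Gsta1, a glutathione transferase that shares sequence with close relatives, had 32.6, 35.5 and 30.1 CPM in control and 106, 106 and 91.6 CPM in HFpEF (edgeR log2 fold change 1.63 ± 0.20, adjusted p = 0.000308), each HFpEF library near 3 times the controls. Of 43 tested cell cycle genes, 2 were lower, 1 was higher and 40 did not pass (median −0.69, −1.31 with HFpEF 2 alone), with 0 higher DEGs without control 1 or 3 or HFpEF 1 or 3 or with HFpEF 2 alone, and with 9 lower DEGs without control 1, 1 without control 2 or 3 or HFpEF 2 or 3, 3 with HFpEF 2 alone and 19 in voom. Ccnd2, cyclin D2, had 72.0, 126 and 131 CPM in control and 39.0, 14.3 and 34.2 CPM in HFpEF (edgeR log2 fold change −1.91 ± 0.45, adjusted p = 0.012). Hspa9, Gsta1 and Ccnd2 were also DEGs with HFpEF 2 alone (log2 fold change −2.40, 1.69 and −2.94).

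**Figure D3:**
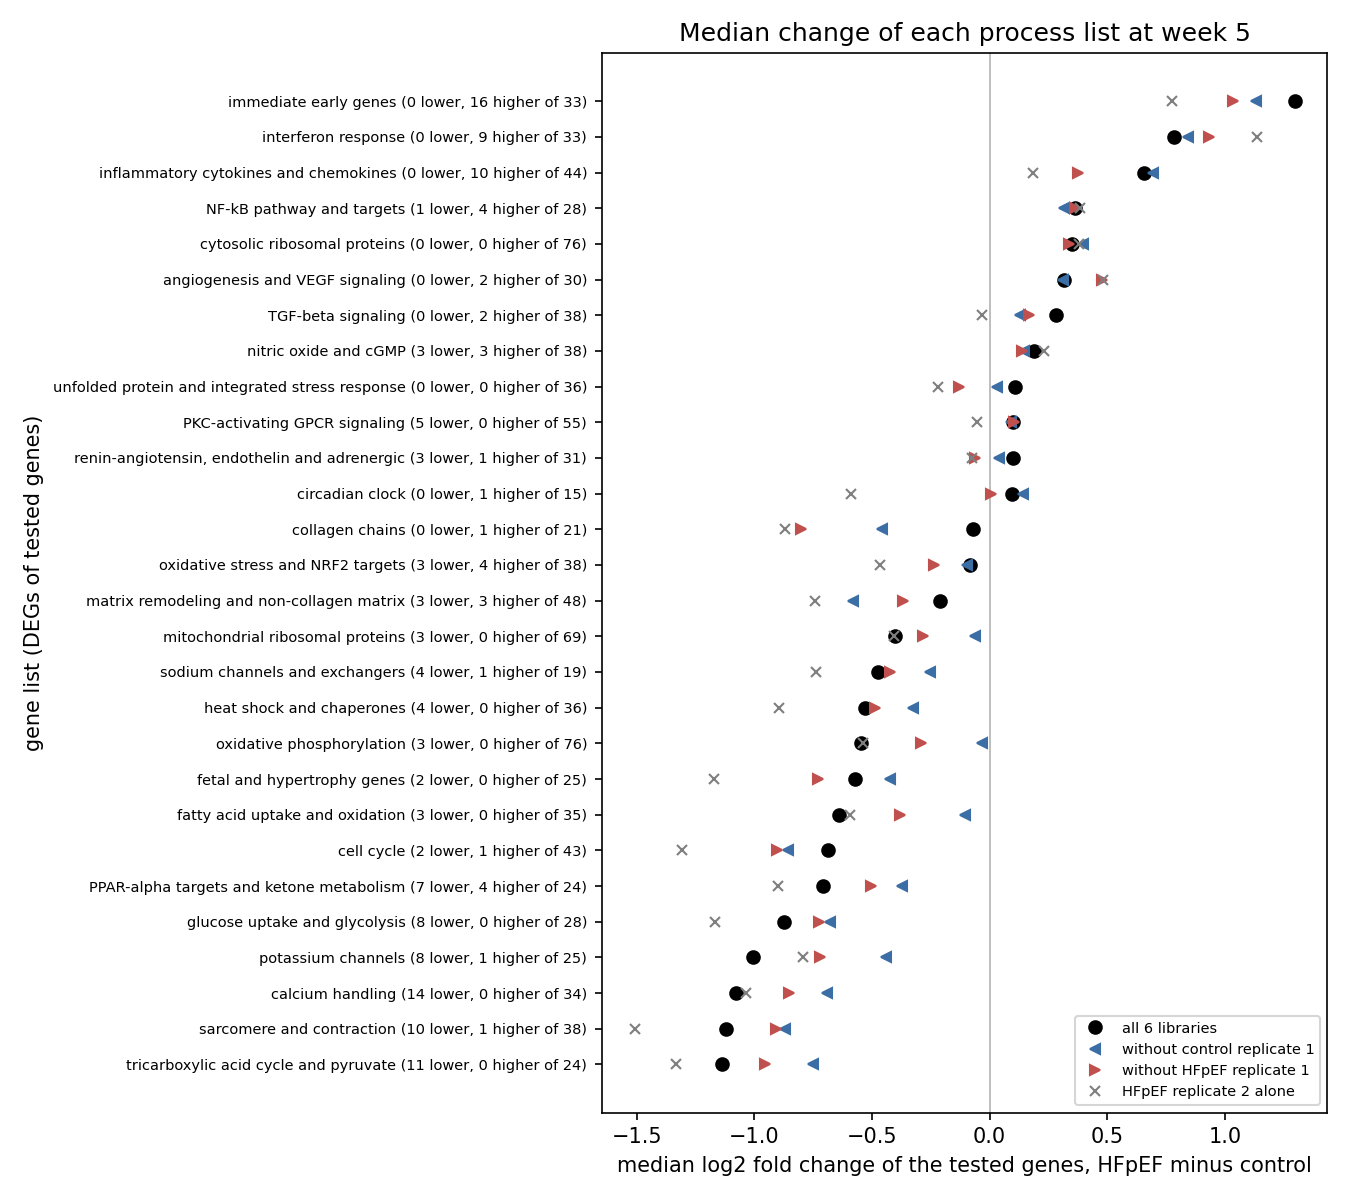
Median log2 fold change (HFpEF minus control) of the tested genes of each process list, with all 6 libraries (black points) and under 3 changes of libraries (triangles and crosses). Labels give the DEGs of each list. Of the black points, immediate early genes lie highest (1.30) and the tricarboxylic acid cycle lowest (−1.14), and removing control 1 brings the median of oxidative phosphorylation to −0.03.

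Among the most abundant DEGs were genes of no list or of several. Of the higher ones, Tmsb4x, the actin-binding thymosin beta 4, had 1103, 1754 and 1558 CPM in control and 3241, 3539 and 2576 CPM in HFpEF (edgeR log2 fold change 1.08 ± 0.23, adjusted p = 0.00714), and Rhob, a small GTPase of endothelial junctions and stress fibers, had 187, 242 and 228 CPM in control and 588, 474 and 638 CPM in HFpEF (edgeR log2 fold change 1.37 ± 0.15, adjusted p = 0.000184). Of the lower ones, Pde4dip, an anchor of phosphodiesterase 4, had 1479, 1142 and 1242 CPM in control and 276, 495 and 599 CPM in HFpEF (edgeR log2 fold change −1.496 ± 0.34, adjusted p = 0.00908), and Ckm, the muscle creatine kinase, had 2364, 861 and 993 CPM in control and 212, 485 and 692 CPM in HFpEF (edgeR log2 fold change −1.60 ± 0.51, adjusted p = 0.0381). Aard had the largest fall of the genes named by size, with 0.565, 20.1 and 18.1 CPM in control and 0.287, 0.183 and 0.357 CPM in HFpEF (edgeR log2 fold change −5.48 ± 1.06, adjusted p = 0.00461), so control 1 was close to the HFpEF libraries. Tmsb4x and Rhob were also DEGs with HFpEF 2 alone (log2 fold change 1.26 and 1.11), and Pde4dip and Aard were not (−1.38 and −6.05). The call of Tmsb4x (log2 fold change 0.92 and 0.98) ended without control 1 or HFpEF 2 and that of Ckm (−0.997, −1.25 and −1.64) without control 1 or HFpEF 1 or 2.

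The week 5 change was set beside that at week 9, where HFpEF rats given PBS as the vehicle were compared with control rats, 3 libraries each. The difference of the 2 changes was tested in the same model, a test chosen after seeing the data. In 2473 of the tested genes (20.0%) it had an adjusted p under 0.05 in edgeR. Of these genes, 737 were DEGs at week 5, and 679 were DEGs at week 5 with the opposite sign at week 9. An opposite sign was counted whatever its size, such as a week 9 log2 fold change of −0.0046 for Cldn5. Choosing genes by their week 5 change by itself favors such a difference, and choosing them by the difference favors opposite signs. There were 113 DEGs at week 9 under the same thresholds. Dusp1, for example, had a log2 fold change of 2.18 at week 5 and of −0.31 at week 9 (difference 2.49 ± 0.28, adjusted p = 0.000392), and Hk2 had −2.38 and 1.53 (difference −3.91 ± 0.43, adjusted p = 0.000343). The week 9 control libraries had 569, 615 and 477 CPM of Dusp1 and 6.88, 6.76 and 11.4 CPM of Hk2. The weeks share no library. At week 9 Eif2s3y had 654, 613 and 741 counts in control and 0 counts in all 3 HFpEF libraries, so there too the sex-linked difference and the disease cannot be told apart.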

How the data were processed

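Left ventricles were sequenced as 19 libraries, of which the 6 of control and HFpEF at week 5 are described. The deposited values are whole-number counts per gene symbol without normalization, made by the authors with Trim Galore for trimming, FastQC for quality, HISAT2 for alignment to rn6 and HTSeq for counting. The strand setting, the overlap mode and the annotation release are not given in the sources used here, so overlapping or antisense genes and near-identical copies could share reads. No row lacked a gene name. A table of the whole series held the same counts in all 19 columns and was not used.

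The counts were scaled by TMM. The test was the quasi-likelihood F test of edgeR 4.0.16 (R 4.3.3), fitted as one model with 7 groups and 19 libraries to the 12388 genes that filterByExpr kept, with Benjamini-Hochberg adjustment. Standard errors of log2 fold changes came from the F statistic. A DEG had an adjusted p under 0.05 and at least a 2-fold change. The principal components were computed on log2 CPM with a prior count of 2. Genes were named by a rule: the 10 DEGs per direction with the largest change among those whose libraries did not overlap and whose higher mean was at least 5 CPM (symbols that start with LOC, RGD, AABR, AC or Rn left out), the 10 most abundant DEGs per direction, and for each of 44 gene lists its defining genes and up to 3 DEGs per direction with the smallest adjusted p, with the genes of NO and cGMP and the sex-linked genes. Of these, those that carry the results are named, and a few are not reported here. Ier2, Klf6, Oas1a and Oas1b, which hold promoter motifs, were chosen after their values were seen. The members and lists were chosen with earlier results of these data known. Gene lists are described by counts and medians and were not tested as sets.

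Alternatives were normalization by RLE and by the upper quartile, no filter beyond 1 count, at least 10 counts in every library, DESeq2 1.42.0, limma 3.58.1 voom with quality weights, only the 6 libraries, the adjusted p alone, a replicate block, the omission of each library, HFpEF replicate 2 alone, and principal components of the 2000 most variable genes. Omitting both first replicates, and testing the groups of week 5 against those of week 9, were added after seeing the data. Promoters are those of RefSeq for GRCr8, matched by symbol. Since no annotation of rn6 was used here, gene length and GC content were not examined. Cardiac function, histology and protein data were not analysed here.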

Additional observations from a re-analysis of the deposited data

Results flagged for a closer look

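For 14 of the 20 genes named for the size of their change, and for 20.0% of all tested genes, the log2 change of HFpEF against control differed between week 5 and week 9 by a test of the difference in edgeR's model of 19 libraries (adjusted p of the 14 from 0.000343 to 0.0492). The 20 were chosen by their week 5 change, which by itself favors such a difference. In the genes that were higher in HFpEF at week 5, the week 5 change minus the week 9 change was 11.67 for Gal, 7.13 for Msln, 6.24 for Comp, 6.22 for Ltk, 6.21 for Serpina3n and 4.56 for Angptl4. In the genes that were lower, it was −3.45 for Esrrb, −3.60 for Chrm2, −3.72 for Adra1a, −4.30 for Ndufa10l1, −4.72 for Irx1, −5.21 for Sphkap, −5.38 for Irx2 and −6.08 for Hcn4. The log2 fold change of Hcn4 was −4.11 at week 5 and 1.97 at week 9, and that of Angptl4 was 5.36 and 0.80. In week 9 control Hcn4 had 1.35, 0.369 and 2.49 CPM and Angptl4 had 9.93, 11.8 and 7.98 CPM, far from the levels in week 5 control. The week 5 values of Gal, Msln, Comp, Irx1 and Irx2 lose their call when single libraries are left out, as given with each gene.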

How the results depend on the processing

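With 1 of the 6 libraries left out, there were 730 to 1113 DEGs, of which 316 to 493 were higher and 339 to 639 lower, and 1490 to 2093 genes passed the adjusted p-value alone. The number of DEGs was 1079 with RLE and 1089 with upper quartile normalization, 1033 without a filter, 852 with at least 10 counts in every library, 1271 in DESeq2 and 1363 in limma's voom, where 5021 genes passed the adjusted p-value alone. Fitting only the 6 libraries, with the spread taken from them alone, gave 460 DEGs (203 higher and 257 lower) and 714 genes past the adjusted p-value. Without a fold threshold there were 2478 genes, 1218 higher and 1260 lower. HFpEF replicate 2 alone gave 813 DEGs and 1273 genes past the adjusted p-value. With both first replicates left out, chosen after seeing the data, there were 768 DEGs (425 higher and 343 lower) and 1456 genes past the adjusted p-value, and 448 of the 1076 DEGs were among them. Libraries with the same number did not deviate together (correlations −0.53, −0.42 and −0.17), and a replicate block gave 932 DEGs. The first component held 54.2% of the variance over the 2000 most variable genes. Over the 146 named genes and all alternatives, 2016 of 2301 values had the sign and the call of the 6-library comparison, 232 lost the call, 34 gained one and 19 changed sign. Of all DEGs, 10 changed sign with HFpEF replicate 2 alone, LOC100911498 (to −2.24) the only named one, and none in any other alternative. Among genes that did not pass, that setting turned Pdk4 to −0.023, Nos2 to 0.65, Cd4 to −1.13 and Pmp22 to −0.25. With both first replicates left out the values were 0.24 for Myh6, 0.44 for Nos2, −0.54 for Cd4 and −0.48 for Pmp22, and in voom −0.048 for Cd4 and −0.24 for Pmp22. With 1 library left out, Ifit1 ran from −0.19 to 0.27, Nos2 from −0.65 to 0.34, Cd4 from −0.34 to 0.56 and Pmp22 from −0.21 to 0.41. The cause of these changes was not tested. Depth limits what can be said of genes with few counts, and with 3 hearts in each group small changes can be missed.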

Other observations

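Of the 1076 DEGs, 196 were in a gene list and 880 in none. Among those outside the lists, 8 in each direction with the smallest adjusted p were chosen after their values were seen. They were taken from DEGs whose groups did not overlap and whose higher mean was at least 5 CPM. Symbols that start with LOC, RGD, AABR, AC or Rn were left out. F3, the tissue factor that starts coagulation, had 19.2, 13.3 and 15.2 CPM in control and 106, 74.6 and 84.3 CPM in HFpEF (edgeR log2 fold change 2.48 ± 0.26, adjusted p = 0.000184). Slc35f1, a solute carrier family member, had 5.75, 3.88 and 3.90 CPM in control and 27.3, 28.6 and 18.8 CPM in HFpEF (edgeR log2 fold change 2.47 ± 0.26, adjusted p = 0.000184). Ndrg1, a gene induced by hypoxia and stress, had 69.4, 53.4 and 57.0 CPM in control and 234, 145 and 199 CPM in HFpEF (edgeR log2 fold change 1.68 ± 0.19, adjusted p = 0.00026), and Gstt3, a theta-class glutathione transferase, had 4.05, 2.25 and 2.31 CPM in control and 28.6, 19.8 and 13.6 CPM in HFpEF (edgeR log2 fold change 2.85 ± 0.34, adjusted p = 0.000302). Acbd4, a binder of acyl-CoA, and Plscr2, a phospholipid scramblase, had log2 fold changes of 1.04 ± 0.12 and 1.35 ± 0.16. The call of Acbd4 (log2 fold change 0.98 and 0.97) ended without control replicate 3 or HFpEF replicate 2. Ltk and Rhob were the remaining ones that rose. Among those that fell, Tead1, the transcription factor through which YAP acts, had 34.5, 36.2 and 37.1 CPM in control and 13.6, 10.7 and 14.0 CPM in HFpEF (edgeR log2 fold change −1.49 ± 0.16, adjusted p = 0.000184). Csnk2a1, the catalytic subunit of casein kinase 2, had 132, 100.3 and 99.4 CPM in control and 40.5, 48.9 and 46.2 CPM in HFpEF (edgeR log2 fold change −1.29 ± 0.15, adjusted p = 0.00025), and Gpd1l, a relative of glycerol-3-phosphate dehydrogenase, had 39.9, 31.5 and 35.8 CPM in control and 8.83, 10.7 and 12.3 CPM in HFpEF (edgeR log2 fold change −1.75 ± 0.21, adjusted p = 0.000302). Dnm1l, which carries out mitochondrial fission, had 153, 105 and 101 CPM in control and 49.9, 39.2 and 57.7 CPM in HFpEF (edgeR log2 fold change −1.29 ± 0.17, adjusted p = 0.000498). Dcbld2, Arhgap5, Tmem196 and Nacc2 had log2 fold changes of −1.56 ± 0.17, −1.17 ± 0.14, −2.37 ± 0.29 and −1.25 ± 0.16. The groups did not overlap in any of these 16 genes, which was a condition for choosing them.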
